A study of Mus musculus with 64 samples.

Results

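Insertions of PiggyBac (PB) and Sleeping Beauty (SB) transposons were examined in 9 genes that are classic targets of retroviral integration in rodent lymphoma: Myc, Pvt1, Mycn, Pim1, Gfi1, Ccnd2, Ccnd3, Cdk6 and Bmi1. The members were the deposited lines whose gene annotation names one of these 9 symbols, which gave 204 of 385883 insertion lines and 9 of 17126 annotated symbols. Of these lines, 161 came from PB tumours, 17 from PB tails, 12 from SB tumours and 14 from SB tails. After removal of the sex chromosomes and of the donor chromosome, where no member lies, and of 1 Cdk6 line without a TTAA within 5 bp, 160 insertions in PB tumours, 17 in PB tails, 12 in SB tumours and 14 in SB tails were kept.

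The study compared both transposon systems in diffuse large B cell lymphomas of mice. The 30 PB tumours and 12 PB tails carried the label IMPB, and the 11 SB tumours and 11 SB tails the label IMSB, and each sample name holds a different code. That a code stands for 1 mouse was taken from the names and is not stated. All mice had a transposase knocked into the Rosa26 locus, which acts constitutively in every tissue, and ITP transposon arrays that serve as donor. SB mice were bred from Rosa26 SB and ITP1-C or ITP2-M parents on a Blm m3/m3 genotype, PB mice came from an earlier cohort, and all had a mixed C57BL/6, 129Sv and FVB background. The labels do not state the ITP line, the Blm genotype or the age of a single mouse. Tail DNA was the control tissue: it received insertions from the same transposase without a tumour having grown from them. Junctions between transposon and genome were sequenced by QiSeq, and read numbers were deposited as raw counts on the mm10 (GRCm38) genome.

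A slow-transforming retrovirus, or a transposon with a promoter, can raise the transcription of a gene next to its insertion, while splice acceptors and polyadenylation signals within the transposon can truncate one. A cell whose insertion favours growth leaves many descendants, so that the same gene is hit in independent tumours. Myc and Mycn encode transcription factors that drive growth and proliferation, and Pvt1 is the long noncoding RNA gene downstream of Myc. Ccnd2 and Ccnd3 encode D-type cyclins, and Cdk6 the kinase they activate to pass the restriction point of the cell cycle. Pim1 encodes a kinase that cooperates with Myc in B cell lymphoma, Gfi1 a transcriptional repressor of haematopoietic cells and Bmi1 a Polycomb protein that represses the Ink4a/Arf locus.

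The kept insertions numbered between 756 and 10800 per PB tumour, between 2035 and 7362 per PB tail, between 760 and 8786 per SB tumour and between 2537 and 7148 per SB tail. An insertion had a median of 6 reads in PB tumours, 21 in PB tails, 13 in SB tumours and 19 in SB tails. One PB tumour had 5721832 reads, where the median PB tumour had 136578. Sample names were written in a joined form in 22 PB tumours, 11 SB tumours, 5 PB tails and 7 SB tails, and in a separated form in the others.

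The 9 genes were hit to very different extents. In PB tumours, Pvt1, Cdk6 and Ccnd3 held 153 of the 160 insertions, the other 6 genes held 7, and Mycn held none. Cdk6 was hit in 24 of 30 PB tumours, Pvt1 in 23 and Ccnd3 in 16, and 29 tumours carried at least 1 insertion in a member. The tumour without any had 3087 kept insertions, within the range of the others. All 3 genes were hit in 13 PB tumours, which had between 3209 and 10800 kept insertions, while the 8 tumours with 1 of the 3 hit had between 756 and 5795. These shares of tumours were not adjusted for the number of insertions in a sample.

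Most of these insertions lay in introns. Of the 160 in PB tumours, 133 fell in introns of the curated RefSeq transcripts, 3 in exons of the noncoding Pvt1, 1 in the UTR of Bmi1 and 23 beyond the RefSeq end of Pvt1, where the deposited annotation still gave Pvt1. None fell in a coding exon, and neither did any of the 43 member insertions in the other groups.

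The following sites carried the results below, each printed on the plus strand with the TTAA target of PB in capitals and 10 reference bases on either side. They are the most covered member insertion, the single Myc insertion, the member TTAA hit in the most tumours, a Pim1 insertion, and sites of Pvt1, Cdk6 and Pim1 hit in more than 1 sample. The coordinates are those of the TTAA on mm10, and the bases were read from the GRCm38 reference.
Cdk6 intron 4, chr5:3440594-3440597, the site with 1648 reads: ttgtgtttctTTAAtcaggatttt
Cdk6 intron 2, chr5:3344965-3344968, hit in 2 tumours: taaataaagtTTAAgaaatgtgta
Cdk6 intron 2, chr5:3369140-3369143, hit in 1 tumour and 1 tail: gtattagtatTTAAgcatcaggct
Pvt1 noncoding exon, chr15:62039261-62039264, hit in 2 tumours: ctagtccttcTTAAagctctagcc
Pvt1 intron 1, chr15:62153379-62153382, hit in 1 tumour and 1 tail: atcatgtctgTTAAagccctttga
Pvt1 beyond the RefSeq end, chr15:62264946-62264949, hit in 2 tumours: tagcctatcaTTAAagggcaggtg
Ccnd3 intron 1, chr17:47534255-47534258, hit in 3 tumours: ttttgtttttTTAAaaagacaact
Myc intron 2, chr15:61989054-61989057, hit in 1 tumour: gtaaagtcccTTAAaaataggagg
Pim1 intron 5, chr17:29494409-29494412, hit in 1 tumour: aggcacttttTTAActgaaagctg
upstream of Pim1, chr17:29489350-29489353, hit in 1 tumour and 1 tail: aaggaagcatTTAAacgcgtgcgc

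In the PB mice, member insertions occupied 160 different TTAA positions, of which 16 (10%) were hit in more than 1 sample. Over all kept PB insertions, 8384 of 195116 positions (4.30%) were shared in this way. Genes with more insertions have more chances of a shared site, so the higher share in the members is a description of these loci. Of the 16, 3 were hit in a tail as well as a tumour.

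The expected number of insertions was computed as if every TTAA or TA site of a chromosome were equally likely to be hit. It was the gene's share of all sites of its chromosome times the insertions on that chromosome. The study reports that PB favours open chromatin and places near genes, which this number leaves out. Adding such preferences to its model lowered the number of genes the study called in PB tumours. Counted between the RefSeq start and end, Cdk6, Pvt1 and Ccnd3 had more insertions than expected in PB tumours, and the other 6 genes were not called (Wald test under a Poisson model, one-sided, with Bonferroni adjustment over 22214 genes; a called gene also had to be hit in 3 samples and 5% of them). These 3 of 9 genes stand beside 1120 of 22214 genes called in the same test, a background of 5.04%. The 3 are the longest members, with 379 to 1125 TTAA sites, and the background was not matched for gene length. Cdk6, which spans 190 kb and has 1125 TTAA sites, had 67 insertions in 24 tumours where 12.3 were expected, or 5.43 times as many (95% Poisson interval 4.21 to 6.89, adjusted p = 1.5e-39). Pvt1 had 45 insertions in 18 tumours within its 222 kb RefSeq gene where 10.4 were expected, or 4.33 times as many (3.16 to 5.79, adjusted p = 9.4e-19). Ccnd3 had 23 insertions in 16 tumours where 4.73 were expected, or 4.87 times as many (3.09 to 7.30, adjusted p = 3.6e-10). Ordered by p over all genes, Cdk6 stood at rank 60, Pvt1 at 178 and Ccnd3 at 342.

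Those ratios rest on insertions of one tumour as if they were independent, and on all insertions down to 2 reads. Where each tumour was counted once per gene, only Ccnd3 was called, against a background of 2.24% of genes, and the ratio fell from 5.43 to 2.46 for Cdk6, from 4.33 to 2.12 for Pvt1 and from 4.87 to 3.73 for Ccnd3. A gene cannot be hit in more than 30 tumours, so this ratio has a ceiling. That ceiling is lower for the long genes Cdk6 and Pvt1, where more tumours are expected to be hit, than for Ccnd3. With insertions of at least 10 reads, only Cdk6 was called, against 2.15%, and the ratio was 4.87 for Cdk6, 3.23 for Pvt1 and 1.77 for Ccnd3, which kept 3 insertions where 1.70 were expected. An exact Poisson test (2.91% of genes called) and a background of sites inside genes (2.96%) called all 3. Leaving out any 1 of the 30 tumours kept all 3 calls, with ratios between 4.0 and 4.61 for Pvt1, between 4.73 and 5.63 for Cdk6 and between 4.47 and 5.08 for Ccnd3. Against sites inside genes alone, the ratio was 3.84 for Cdk6, 3.18 for Pvt1 and 3.39 for Ccnd3.

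**Figure D1:**
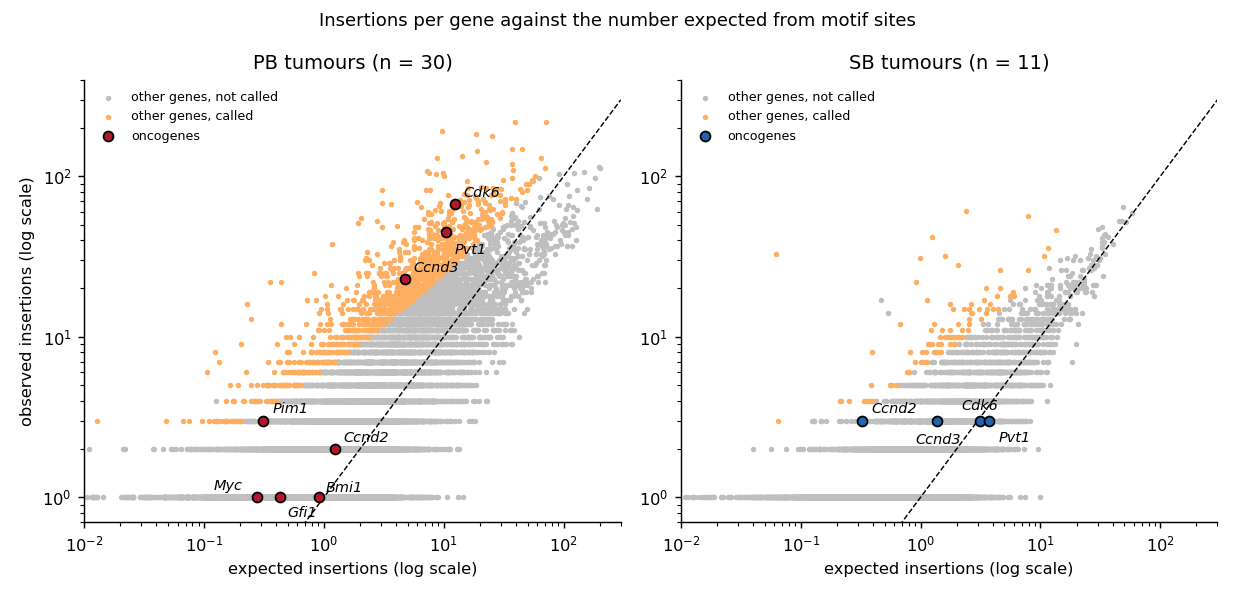
Observed insertions per gene (log scale) against the number expected from motif sites (log scale) in 30 PB tumours and 11 SB tumours; small points are genes with at least 1 insertion, orange where called, large points those of the 9 oncogenes that had an insertion, and the dashed line marks equality. Cdk6, Pvt1 and Ccnd3 lie 4.33 to 5.43 times above the line in PB tumours, and Cdk6 and Pvt1 lie near it in SB tumours.

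The same test on the tail DNA called none of the 9 genes, with 1.27% of genes called. Cdk6 had 7 insertions in 5 PB tails where 3.90 were expected (ratio 1.80, 0.722 to 3.70). Pvt1 had 7 in 7 tails where 3.20 were expected (ratio 2.18, 0.878 to 4.50), and Ccnd3 had 1 where 1.36 was expected. With each tail counted once per gene, the ratio was 1.55 for Cdk6, below the 2.46 of the tumours, and 2.56 for Pvt1, above the 2.12 of the tumours. Tumours and tails have different ceilings for this ratio. With all insertions the tumour ratio was the higher for both genes, 5.43 against 1.80 for Cdk6 and 4.33 against 2.18 for Pvt1. These differences were not tested in this model.

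Tumours and tails were then compared sample by sample, to ask whether a gene was hit more often in tumours than in tails. The tumours were taken from other organs than the tail, so tissue and tumour cannot be told apart in this comparison. In PB tumours, Cdk6 had a lowest value of 0, a median of 1 and a highest value of 11 insertions per tumour, with a mean of 2.07 ± 2.48 (SD, n = 30). In PB tails, the lowest value was 0, the median 0 and the highest 3, with a mean of 0.583 ± 0.900 (SD, n = 12). The 2 tumours above all others had 11 and 8 insertions and 8649 and 10800 kept insertions, and the groups overlapped, since 6 tumours had no Cdk6 insertion and 5 tails had at least 1.

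For Pvt1, values per PB tumour ran from 0 over a median of 1 to 9 with a mean of 2.27 ± 2.46 (SD, n = 30). Every PB tail had 0 or 1, with a median of 1 and a mean of 0.583 ± 0.515 (SD, n = 12). The groups differed at the top: 9 tumours with more than 2 insertions held 50 of the 68, while no tail had more than 1. The share of samples hit was closer, at 76.7% of tumours (95% exact binomial interval 57.7% to 90.1%) and 58.3% of tails (27.7% to 84.8%).

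Ccnd3 was spread more evenly over tumours. A PB tumour had between 0 and 3 insertions with a median of 1 and a mean of 0.767 ± 0.858 (SD, n = 30), and only 1 tumour had 3. Among the 12 tails, 1 had a single insertion and 11 had none, so that 53.3% of tumours (34.3% to 71.7%) and 8.33% of tails (0.211% to 38.5%) were hit.

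**Figure D2:**
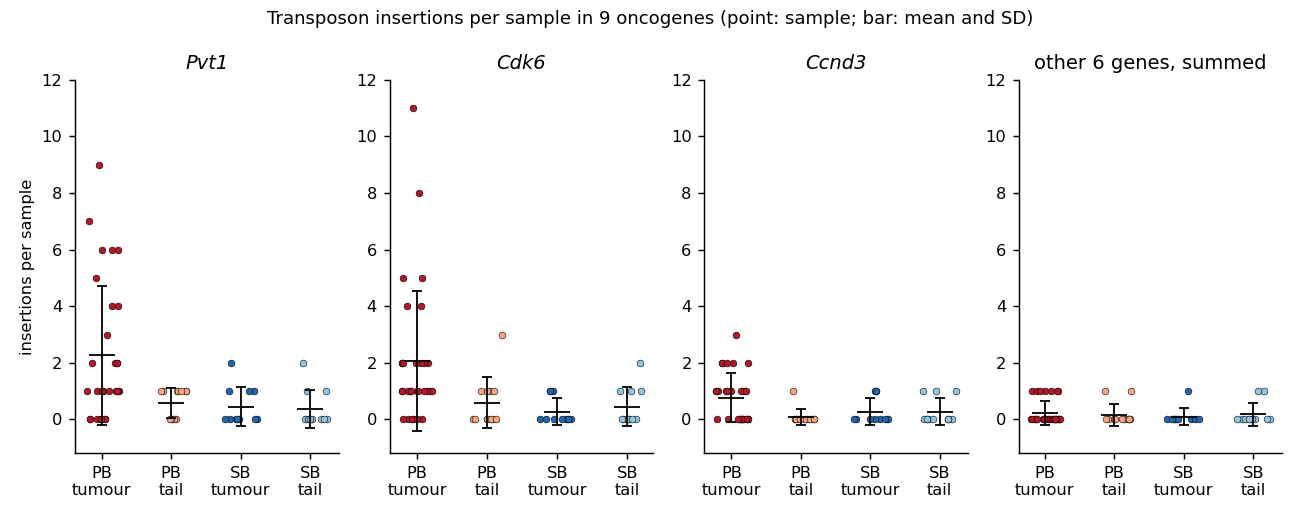
Insertions per sample in Pvt1, Cdk6, Ccnd3 and the other 6 oncogenes summed (Myc, Mycn, Pim1, Gfi1, Ccnd2 and Bmi1); points are samples and bars the mean and SD, with 30 tumours and 12 tails for PB and 11 of each for SB. Counts of 4 and more occur in PB tumours for Pvt1 and Cdk6, and the other groups stay at 3 or below.

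Per 10000 kept insertions, PB tumours had 4.33 in Pvt1, 3.95 in Cdk6 and 1.47 in Ccnd3, and PB tails had 1.45, 1.45 and 0.208. The edgeR fit adds a small prior count, which draws log2 folds towards 0 where counts are low, as in the Ccnd3 tails. Relative to the kept insertions of each sample, its tumour levels were 2.59 times the tail levels for Pvt1 (log2 fold 1.38, approximate SE 0.51), 2.43 times for Cdk6 (1.28, SE 0.52) and 3.68 times for Ccnd3 (1.88, SE 0.72). None of the 3 passed adjustment over the 3305 symbols with at least 10 insertions (edgeR quasi-likelihood test, Benjamini-Hochberg adjusted p = 0.091, 0.12 and 0.10), where 147 symbols (4.45%) did. With all insertions, all 3 had an unadjusted p under 0.05. DESeq2 called Pvt1 (adjusted p = 0.042, 2.6% of symbols called) and did not call Cdk6 (DESeq2 adjusted p = 0.065). Ccnd3, like some other symbols within that percentage, got no adjusted p from DESeq2 (unadjusted p = 0.032). These 3 reached 10 insertions mainly through the tumours, and the other 6 genes had too few insertions. With every symbol of at least 1 insertion admitted, none of the 9 members was called (0.514% of symbols were), and the same 3 had an unadjusted p under 0.05. By the share of samples hit alone, none of the 3 was called (Fisher's exact test, two-sided, Benjamini-Hochberg adjusted p = 0.76 for Pvt1, 0.35 for Cdk6 and 0.31 for Ccnd3, 0.212% of symbols called), and Pvt1 had an unadjusted p of 0.27. At least 10 reads were reached by 36.2% of kept insertions in PB tumours and 71.4% in PB tails. On these alone, the log2 fold fell to 1.10 for Pvt1 (edgeR, unadjusted p = 0.049, adjusted p = 0.23) and 0.77 for Cdk6 (unadjusted p = 0.14, adjusted p = 0.43). Ccnd3 fell below the filter, and 7.95% of symbols were called.

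Whether Pvt1 was called depended on the normalization, and the size of its fold on the end of the gene. With TMM factors, which moved the median log2 fold of all symbols to 0.40, Pvt1 passed the edgeR test (log2 fold 1.61, adjusted p = 0.044, 5.17% of symbols called). Within the RefSeq gene its log2 fold was 0.82 (SE 0.53, edgeR adjusted p = 0.41, 4.35% of genes called). This left out the 23 tumour insertions beyond the RefSeq end, while all 7 tail insertions, which lay in intron 1, were kept. Without PB tail 6, the one tail with a Ccnd3 insertion, Ccnd3 passed the edgeR test at an adjusted p of 0.024 against a tail group at 0, and no other sample changed a call when left out. Joined sample names were more frequent in tumours (22 of 30) than in tails (5 of 12). Among samples with joined names the log2 fold was 1.47 for Pvt1 and 1.06 for Cdk6 (1.38% of symbols called), and with name form as a covariate it was 1.30 for Pvt1, 1.13 for Cdk6 and 1.73 for Ccnd3 (3.03%), with no member called.

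**Figure D3:**
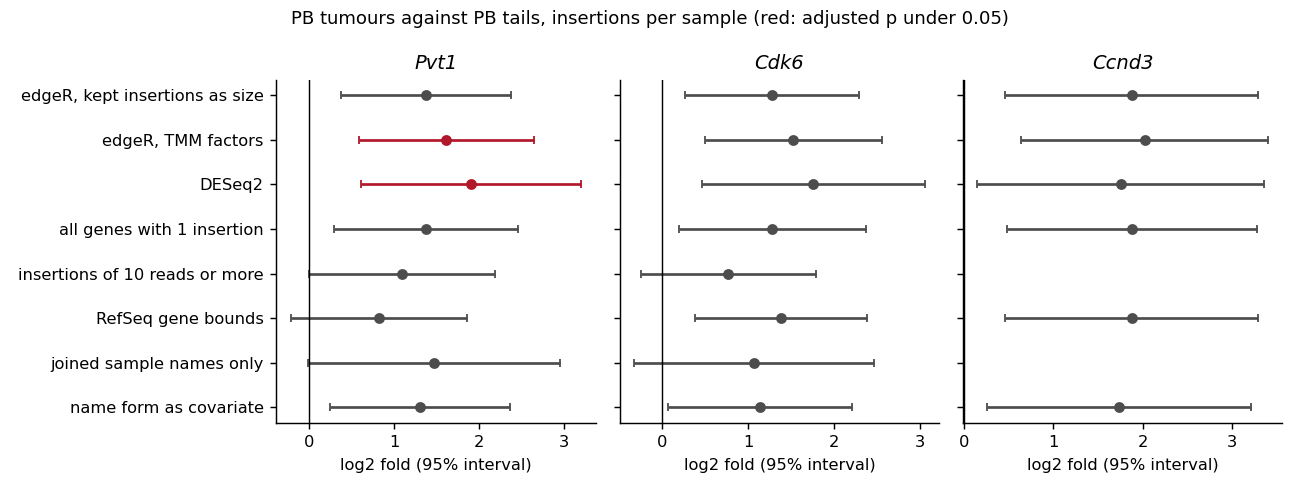
Log2 fold of insertions per sample in 30 PB tumours over 12 PB tails for Pvt1, Cdk6 and Ccnd3 with 95% intervals (approximate for edgeR), in 8 model fits. Red marks an adjusted p under 0.05. The estimates drawn run from 0.77 to 2.02, and Pvt1 is called with TMM factors and with DESeq2. Ccnd3 is not drawn for joined names alone, where its tails are at 0, and fell below the filter at 10 reads.

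Along Cdk6, the insertions of PB tumours were densest in introns 2 and 3 among the 4 long introns, with no test run. Intron 2 held 25 in 14 tumours, or 8.14 per 100 TTAA sites, intron 3 held 16 in 10 tumours (6.48 per 100), intron 4 held 9 in 9 (3.5 per 100) and intron 5 held 11 in 6 (4.95 per 100). The 7 tail insertions were spread over introns 2 to 5 at 0.405 to 0.977 per 100 sites. A further 5 tumour insertions lay within the RefSeq bounds but were deposited as intergenic, 4 of them in the 1.84 kb after the gene start, ahead of the curated transcript.

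The member insertion with the most reads lay in Cdk6. PB tumour 7, a lymph node, carried it in intron 4 on the opposite strand, with 1648 reads at rank 20 of its 8649 insertions and 1.0% of its reads. The next, with 271 reads, lay upstream of it in the same intron in PB tumour 28, on the same strand as the gene, at rank 57 of 1541. These were the only 2 of the 160 member insertions in PB tumours within the 100 most covered of their sample (1.25%, where 1.93% of all kept insertions were). In PB tails, 2 of the 17 member insertions were (11.8%, where 2.59% of all were), in Cdk6 at rank 38 and in Pvt1 at rank 54.

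Pvt1 insertions covered the whole annotated length. In 5 equal stretches of the 340 kb GENCODE gene, from the start, PB tumours had 3.62, 4.64, 7.17, 3.82 and 4.61 insertions per 100 TTAA sites. PB tails had 1 insertion in stretch 1, 6 in stretch 2 and none in the others. The 23 tumour insertions beyond the RefSeq end came from 13 tumours. With the GENCODE gene, 68 insertions in 23 tumours stood against 17.4 expected, or 3.92 times as many (3.04 to 4.96, adjusted p = 4.5e-25, 2.91% of genes called), and 7 in tails against 5.35 (ratio 1.31, 0.526 to 2.69).

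Ccnd3 showed the closest grouping. Intron 1, which has 305 of its 379 TTAA sites, held 20 of the 23 insertions in PB tumours, and 10 of those lay in stretch 2 of 5 equal stretches of the gene (14.1 per 100 TTAA sites, where the other stretches had 1.56 to 5.48). The densest 1 kb held 6 insertions of 5 tumours at 4 positions between 28.6 and 29.5 kb from the gene start, with 2 to 8 reads each, and no insertion of another group. The TTAA at chr17:47534255-47534258, printed above, was hit there in PB tumours 6, 15 and 22 with 5, 8 and 6 reads, in both orientations. The densest 1 kb of Pvt1 and of Cdk6 each held 4 insertions. These windows were found by search and are descriptions.

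**Figure D4:**
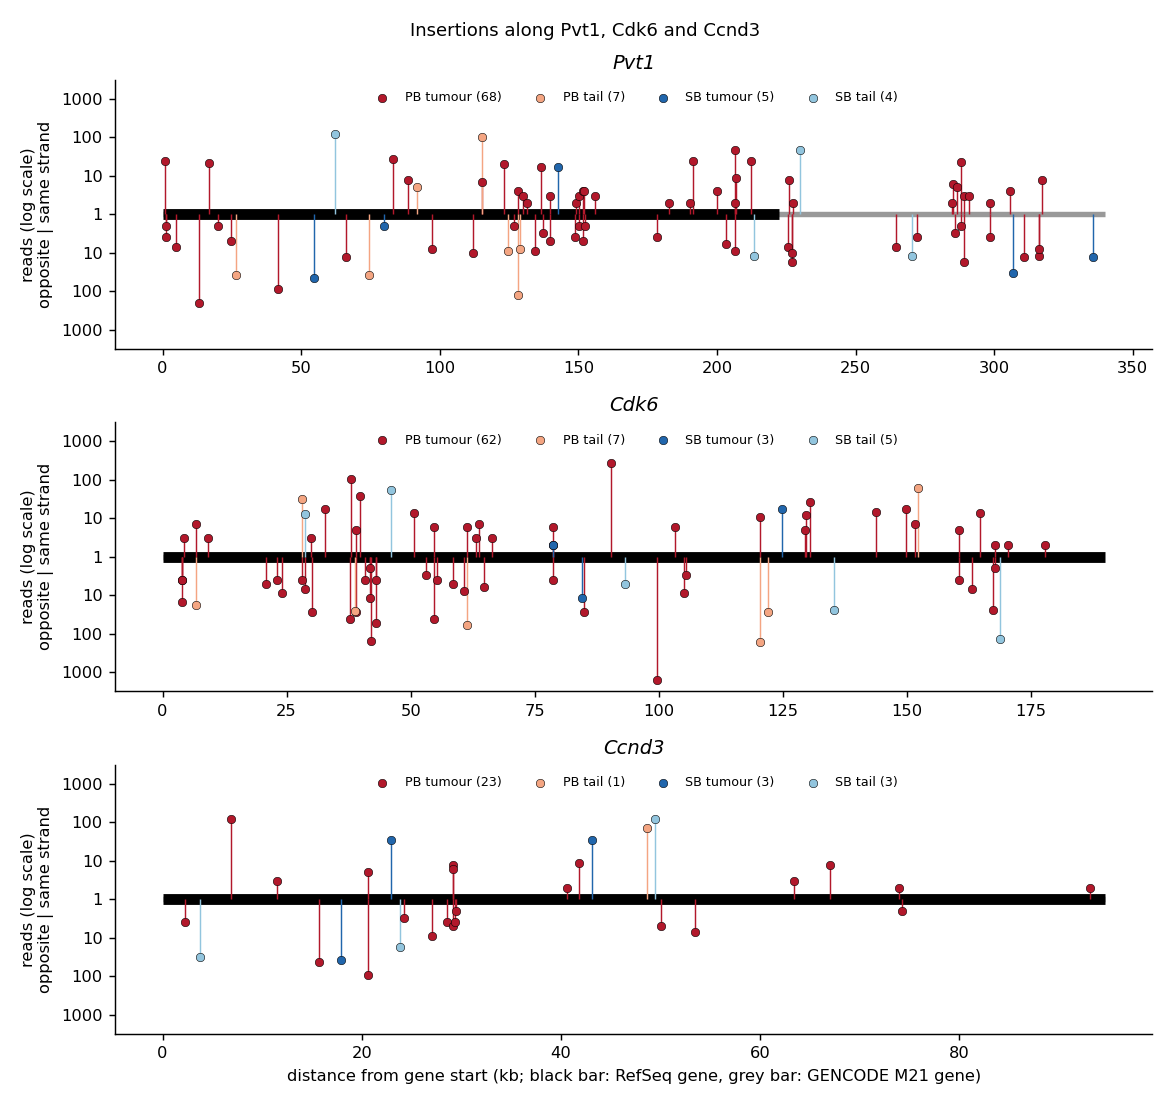
Insertions along Pvt1, Cdk6 and Ccnd3 by distance from the RefSeq gene start (kb); the height of a stem is the number of reads (log scale), upwards for the strand of the gene and downwards for the opposite strand, and the bars show the RefSeq (black) and GENCODE (grey) gene. Stems of PB tumours run over the full length of Pvt1 and crowd between 28.6 and 29.5 kb in Ccnd3, and both orientations occur throughout.

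No preference for a strand was detected in the 3, with wide intervals. Within the RefSeq bounds in PB tumours, 33 of 67 Cdk6 insertions (49.3%, 95% exact binomial interval 36.8% to 61.8%), 24 of 45 Pvt1 insertions (53.3%, 37.9% to 68.3%) and 11 of 23 Ccnd3 insertions (47.8%, 26.8% to 69.4%) were on the strand of the gene. No member was called and none had an unadjusted p under 0.05 (exact binomial test, two-sided, Benjamini-Hochberg over 2717 genes, of which 1, or 0.0368%, was called). Over all genes 48.5% of insertions had the strand of the gene. With each tumour counted once by its more frequent strand, ties left out, 12 of 18 tumours had the strand of the gene for Cdk6 (66.7%). The share was 9 of 17 for Pvt1 (52.9%) and 5 of 13 for Ccnd3 (38.5%), and again no member was called. Strand was used as deposited, and which end of the transposon it refers to is not given in the sources used here.

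Reads grow with the part of the sample that carries an insertion but also with PCR. In PB tumours the median was 5 reads per Pvt1 insertion, 6 per Cdk6 insertion and 5 per Ccnd3 insertion, where all kept insertions had 6. At least 10 reads were reached by 45 of the 160 member insertions (28.1%) and by 36.2% of all. In tails the median was 39 reads for Pvt1 and 31 for Cdk6, and the single Ccnd3 insertion had 71, where all had 21. Reads per symbol were also scaled to a common total per sample (RPM), and on the scale of log2(RPM + 1) tumours were above tails by 2.31 (SE 1.16) for Ccnd3, 1.96 (SE 1.26) for Cdk6 and 0.67 (SE 1.26) for Pvt1. None was called (limma with trend, adjusted p = 0.32, 0.47 and 0.86), where 64 of 3305 symbols (1.94%) were, and Ccnd3 alone had an unadjusted p under 0.05. With 10 added in place of 1 the differences were 0.99, 0.79 and 0.11, and no unadjusted p was under 0.05.

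**Figure D5:**
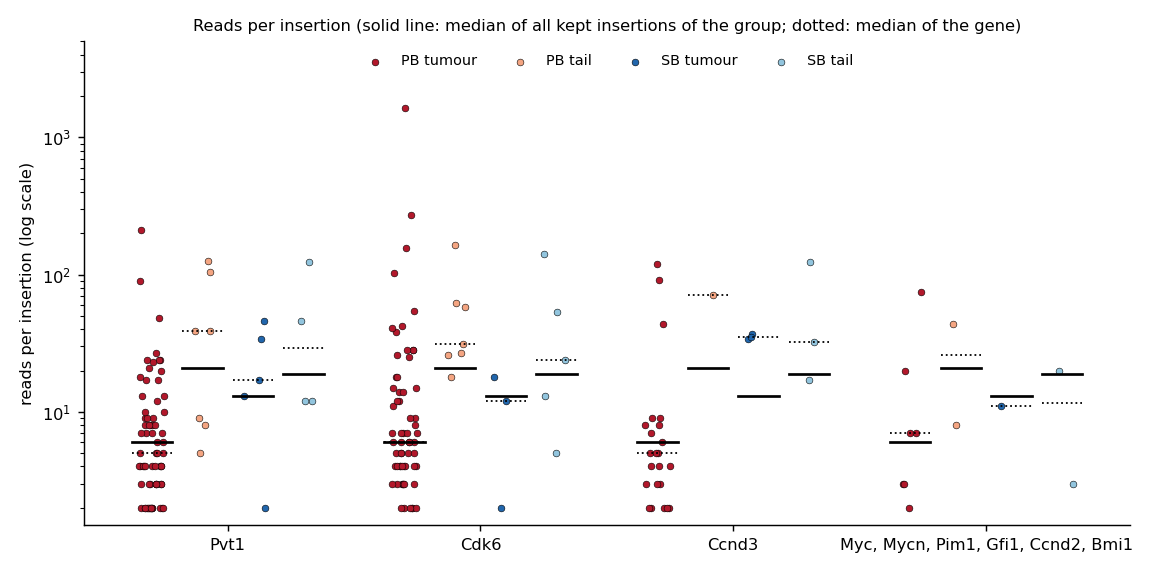
Reads per insertion (log scale) in the 4 groups for Pvt1, Cdk6, Ccnd3 and the other 6 oncogenes; points are insertions, solid lines the median of all kept insertions of the group and dotted lines the median of the gene. Insertions in PB tumours gather between 2 and 9 reads around the group median of 6, and the highest is the Cdk6 insertion of 1648 reads.

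By the place where a tumour was taken, Pvt1 and Cdk6 were hit in all 5 PB tumours labelled lymph node without a further site, and Ccnd3 in 2. Cdk6 had 2 insertions in 4 of them and 11 in PB tumour 7, and Pvt1 had 1, 2, 5, 6 and 7. In the 9 mesenteric masses, Pvt1 was hit in 6, Cdk6 in 7 and Ccnd3 in 7, and in the 6 spleens they were hit in 4, 3 and 2. With so few tumours per site no test was run.

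Myc itself was hit once. The insertion lay in intron 2, on the strand of the gene, in a mesenteric lymph node (PB tumour 28) with 75 reads at rank 570. Myc spans 5.02 kb with 23 TTAA sites, so that 0.278 insertions were expected in the 30 PB tumours, and a single one was not called. Between the end of Myc and the start of Pvt1, 47.6 kb downstream, 7 insertions of 6 PB tumours stood against 2.69 expected, and 1 insertion in PB tails against 0.828; no more than 31 reads supported any of those in tumours. Mycn, with 0.257 insertions expected, had none in PB tumours, which allows up to 0.191 per 10000 insertions (3 counts; counting error only), and 1 each in PB tail 2 (8 reads) and SB tail 1 (20 reads).

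Pim1 had 3 insertions in 3 PB tumours, with 3, 7 and 3 reads, in introns 4 and 5. Against 0.312 expected this was 9.63 times as many (1.98 to 28.1), which did not pass Bonferroni adjustment (adjusted p = 0.98). With Benjamini-Hochberg adjustment Pim1 was called too (adjusted p = 0.00062, 12.9% of genes called). With 20 kb added on either side, 13 insertions in 10 tumours stood against 2.73 expected (4.76 times, 2.54 to 8.14, adjusted p = 0.00022), so that 4 of the 9 genes were called, with 6.78% of all genes called. Of the 13, 9 insertions of 8 tumours lay upstream, at -16.2 to -1.39 kb from the gene start, in a stretch the deposited annotation gives to the gene AC163629.1, with 4 to 22 reads. The tails had 3 insertions there, at -2.71 to -1.44 kb from the start, where 0.334 were expected, against 1.16 in tumours. Both the TTAA at chr17:29489350-29489353 and the one at chr17:29489068-29489071 were hit in 1 tail and 1 tumour, and so insertions above the expected number were present in control tissue as well.

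Gfi1 was hit once in PB tumours, in intron 1 with 7 reads, and once in SB tails. Bmi1 was hit once in PB tumours with 2 reads and once in PB tails with 44 reads, both in its UTR. Ccnd2 was annotated once in PB tumours, in intron 3 with 20 reads, and once in SB tumours, in intron 4 with 11 reads. None of these 3 genes was called in any group by the test with Bonferroni adjustment on all insertions.

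In SB, insertions in these genes were few in tumours and tails. Pvt1 had 5 insertions in 4 of 11 SB tumours and 4 in 3 of 11 SB tails, Cdk6 had 3 in 3 tumours and 5 in 4 tails, and Ccnd3 had 3 in 3 tumours and 3 in 3 tails. Per sample this came to 0.455 ± 0.688 and 0.364 ± 0.674 (SD, n = 11 each) for Pvt1, with a highest value of 2 in both groups. Within the RefSeq bounds, Cdk6 had 3 insertions in SB tumours where 3.11 were expected (ratio 0.965, 0.199 to 2.82) and Pvt1 3 where 3.75 were expected (0.801, 0.165 to 2.34). The matching ratios in PB tumours, 5.43 for Cdk6 and 4.33 for Pvt1, lie above these SB intervals, a difference not tested in this model. With each tumour counted once, the ratio was 1.14 for Cdk6 and 0.990 for Pvt1 in SB, beside 2.46 and 2.12 in PB. Ccnd3 had 3 where 1.37 were expected (2.20, 0.453 to 6.42). None of the 9 genes was called in SB tumours, with 0.4% of 23497 genes called, nor in SB tails, with 0.183%.

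Ccnd2 came nearest in SB. Besides the annotated insertion, 2 deposited as intergenic lay at the RefSeq end of the gene in other SB tumours, at 31 and 12 reads, beyond the curated transcript. These 3 insertions in 3 tumours stood against 0.326 expected (9.21 times, 1.90 to 26.9) and were called with Benjamini-Hochberg adjustment, where 1.3% of genes were called, and with insertions of at least 10 reads (0.285%), but not in the main test. SB tails had none in the RefSeq gene.

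Whether the change from tail to tumour differed between systems was tested directly. The log2 difference, PB minus SB, was 1.70 for Ccnd3 (approximate 95% interval -0.46 to 3.86), 1.67 for Cdk6 (-0.43 to 3.76) and 0.93 for Pvt1 (-1.36 to 3.21). None was called (edgeR quasi-likelihood test, adjusted p = 0.64, 0.62 and 0.88), no unadjusted p was under 0.05, and 0 of 4292 symbols were called (0%). With insertions of at least 10 reads the difference was 0.07 for Ccnd3, 1.13 for Cdk6 and 0.78 for Pvt1, and within RefSeq bounds it was 0.28 for Pvt1. System and cohort cannot be told apart, since the PB and SB mice came from different cohorts. In SB, no member reached the 10 insertions needed for the tumour and tail test, and with every symbol of at least 1 insertion admitted none of the 6 members tested was called (0.0704% of symbols were) or had an unadjusted p under 0.05.

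Of 20 relatives and further loci known from retroviral lymphoma, 18 lay on the chromosomes tested. In PB tumours the Wald test called 2 of the 18, where 5.04% of all genes were called. Max, which encodes the dimerization partner of Myc, had 15 insertions in 11 tumours where 1.39 were expected (Wald test, adjusted p = 3.2e-16). Lmo2, a transcriptional cofactor of haematopoietic cells, had 8 in 8 tumours where 1.33 were expected (Wald test, adjusted p = 0.0043). The median ratio of observed to expected insertions was 3.59 over the 9 members, 0.844 over the 18 relatives and 0.778 over all genes. The first of these is the ratio of Myc, from its single insertion, and was 2.36 without PB tumour 28. None of the 18 was called in PB tails (1.27% of genes called), SB tails (0.183%) or SB tumours (0.4%). PB tails had no Max insertion where 0.424 were expected, and the edgeR test of tumours against tails did not call Max (adjusted p = 0.074), but did with TMM factors (adjusted p = 0.044).

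The 3 symbols most like Cdk6 in the share of samples hit, by Euclidean distance over the 4 groups among 4292 symbols with at least 10 insertions, were Fam107b, Rasa2 and Bbx. Cdk6 was hit in 80.0% of PB tumours, 27.3% of SB tumours, 41.7% of PB tails and 36.4% of SB tails. Fam107b was hit in 76.7%, 27.3%, 50.0% and 36.4%, in the same order, at a distance of 8.98 percentage points, and Rasa2 and Bbx stood at 12.8 and 12.9.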

How the data were processed

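Insertions in 64 samples of tumour or tail DNA were analysed. The authors deposited raw read counts per insertion position, strand and gene annotation on mm10, from splinkerette PCR and MiSeq sequencing. The aligner, caller and read filters are not given in the sources used here. A normalized coverage (1 per-sample column) was not used. Since PCR copies were not marked by molecular identifiers, Poisson and binomial intervals and limits cover counting error only. The labels do not state which samples, if any, share a mouse. The SEs of edgeR were derived from the log2 fold and its F statistic, and its intervals from these SEs with normal quantiles. They are approximate and can be too narrow where counts are low. The p-values, SEs and intervals of edgeR, DESeq2 and limma measure the spread between these samples. Those of the selection and strand tests rest on insertions pooled over samples and taken as independent, and do not measure it.

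Each line was assigned to the closest target motif up to 5 bp away, and 2280 of 385883 lines (0.591%) had none. Lines of a sample at the same motif became 1 insertion with summed reads. Sex chromosomes and chromosome 14, the donor by density of insertions in both systems, were left out, and 299594 insertions were kept. Gene bounds were those of RefSeq on GRCm38, with GENCODE M21 as an alternative. The selection test followed the form of the study's model that uses site numbers alone. Tumours and tails were compared on insertions per sample and annotated symbol with edgeR, library size being the kept insertions, for symbols with at least 10 insertions, and on log2(RPM + 1) with limma. DESeq2 used poscounts size factors. Alternatives covered the test, correction, normalization, filters, gene bounds and sample names. The main tests were also run on simulated data with known answers.

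Named are the 9 members, up to 4 of a list of 20 related genes and the 3 symbols most like Cdk6. Members and lists were chosen with earlier results of these data known. Leaving out single samples, GENCODE bounds and the windows of 1 kb were added after the data had been seen. Software was limma 3.58.1, DESeq2 1.42.0 and edgeR 4.0.16 in R 4.3.3, and scipy 1.17.1, pandas 2.3.3, numpy 2.4.6 and matplotlib 3.10.9 in Python 3.11.15.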

Additional observations from a re-analysis of the deposited data

How the results depend on the processing

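No paired analysis was possible because the labels carry no replicate numbers or shared animals that tie samples of different groups. The selection test called 3 of 9 members in PB tumours, and 5.04% of all genes. It called 1 with each tumour counted once per gene (Ccnd3, 2.24% of genes called) and 1 with insertions of at least 10 reads (Cdk6, 2.15%), and 3 without any 1 of the 30 tumours. In SB tumours it called 0 (0.4% of genes called), but 1 with Benjamini-Hochberg adjustment (1.3%) and 1 with at least 10 reads (0.285%), Ccnd2 both times. The edgeR test of PB tumours against tails called 0 (4.45% of symbols called), but 1 with TMM factors (5.17%) and 1 with DESeq2 (2.6%), Pvt1 both times. When each sample was left out in turn, the edgeR test called between 0 and 1 (Ccnd3 without PB tail 6). Members with an insertion in PB tumours fell from 8 to 5 with at least 10 reads. The ratio of observed to expected insertions changed side of 1 for Bmi1 in PB tumours with sites inside genes as background (0.83) and for Cdk6 in SB tumours when samples were counted once (1.14) or with at least 10 reads (1.08). The causes were not tested. The tests by reads, strand and interaction called no member under any alternative. The leave-one-out fits, the GENCODE bounds and the read minimum for members hit were chosen after seeing the data. In the short genes Myc, Mycn, Pim1, Gfi1 and Bmi1 fewer than 1 insertion was expected in any group, so at this depth a moderate excess was not detectable there.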
